A study of Mus musculus with 16 samples.

Results

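The 42 genes described here encode cyclins and their kinases, the proteins that license and copy DNA, and the proteins of mitosis. They were chosen by symbol from what they are known to do, as 9 genes of G1 and the G1/S transition, 15 of S phase and 18 of G2 and mitosis, and not by a threshold on measured values. Of the 42, 38 had at least 1 probe on the array under their symbol, with 72 probes in all, and 33 had a probe bright enough to test, among 9682 genes tested in the whole series. The samples were whole pituitary RNA of mouse embryos at embryonic day 17.5, measured on Illumina bead arrays, on which each probe is read as the brightness of labelled RNA bound to its beads. The 6 mutants were labelled Insm1 -/- and the 10 controls Insm1 +/-, all on the strain background C57/BL6;129Ola mixed, so the controls also carried 1 mutant copy of Insm1, which encodes a zinc finger transcription factor of developing endocrine and neural cells. Whether glands were pooled is not in the labels, and p-values therefore cover only the spread between the samples as deposited.

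A cell enters the division cycle when D-type cyclins with Cdk4 or Cdk6, and then E-type cyclins with Cdk2, phosphorylate the retinoblastoma family of pocket proteins and free the E2F factors that switch on replication genes. The MCM helicase is loaded at origins in G1 and unwinds DNA in S phase, while ribonucleotide reductase and thymidylate enzymes supply its building blocks. Mitosis genes follow in G2, when the DREAM complex of a pocket protein, E2F4 and the MuvB core has given way to MuvB with B-Myb and FoxM1 on their promoters. In the embryonic pituitary, dividing progenitors that express Sox2 line the cleft, and hormone cells form largely as cells leave the cycle.

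The promoters of these genes show which letters each phase shares, and 6 are printed for that reason: 3 of mitosis genes, 2 of S phase genes and that of Ccne1. Each stretch is the 120 bases before a RefSeq transcript start in build GRCm38.p6, written 5′ to 3′ on the gene's strand, and capitals mark matches to the motifs searched on both strands.
Cdc20 (chr4:118437344-118437463, minus strand): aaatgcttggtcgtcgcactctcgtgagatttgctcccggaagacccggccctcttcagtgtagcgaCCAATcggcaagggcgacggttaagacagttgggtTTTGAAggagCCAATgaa
Kif11 (chr19:37376262-37376381, plus strand): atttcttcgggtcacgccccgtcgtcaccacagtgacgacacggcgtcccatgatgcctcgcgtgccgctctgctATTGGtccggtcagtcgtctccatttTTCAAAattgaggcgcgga
Top2a (chr11:99024190-99024309, minus strand): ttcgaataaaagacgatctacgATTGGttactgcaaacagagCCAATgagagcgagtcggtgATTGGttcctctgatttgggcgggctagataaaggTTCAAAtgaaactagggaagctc
Mcm6 (chr1:128359706-128359825, minus strand): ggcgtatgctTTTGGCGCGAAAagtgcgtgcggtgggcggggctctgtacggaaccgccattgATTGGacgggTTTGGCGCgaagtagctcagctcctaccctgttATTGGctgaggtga
Rrm2 (chr12:24708134-24708253, plus strand): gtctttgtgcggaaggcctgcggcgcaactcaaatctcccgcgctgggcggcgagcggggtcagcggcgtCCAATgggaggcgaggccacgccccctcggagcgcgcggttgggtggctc
Ccne1 (chr7:38107491-38107610, minus strand): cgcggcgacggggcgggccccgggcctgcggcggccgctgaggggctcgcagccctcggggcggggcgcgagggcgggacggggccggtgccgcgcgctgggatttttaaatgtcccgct
The motifs were TTTGAA, the core of the cell cycle homology region that MuvB binds; CCAAT, the box bound by NF-Y; and the E2F site in the forms TTTCCCGC, TTTGGCGC, TTTCGCGC and TTTGCCGC. In windows from 250 bases before to 50 bases after the start, TTTGAA lay in 12 of 16 promoters of G2 and mitosis members (75.0%), in 2 of 14 of S phase members (14.3%) and in 0 of 7 of G1 members. Over all 32851 promoter windows of the same length, 17.9% held it. CCAAT lay in 14 of 16, 10 of 14 and 2 of 7 of those promoters, against 37.4% of all windows. An E2F form lay in 5 of the 14 S phase promoters (35.7%), those of Mcm3, Mcm5, Mcm6, Mcm7 and Cdc6, against 2.26% of all windows. The other phases had it in 1 of 7 G1 promoters (14.3%) and 1 of 16 G2 and mitosis promoters (6.25%), those of Cdk2 and Cdk1. The Mcm6 stretch holds 3 E2F matches, of which a pair on opposite strands overlap and appear as 1 run of capitals. The printed Rrm2 stretch holds a CCAAT box but no E2F form, and the Ccne1 stretch holds none of these letters. A match describes letters and not binding, which was not measured. In all, 35 members matched 37 promoter windows.

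Array brightness was similar in both groups: median raw intensity lay between 96.5 and 132 over the mutant arrays and between 102 and 122 over the control arrays, and 12928 to 13671 probes were detected in mutants, against 12892 to 14156 in controls. The Insm1 probe was brighter in the mutants, at 11.78 ± 0.23 (SD, n = 6) against 11.42 ± 0.18 (SD, n = 10) in controls on a log2 scale, so it gives no check of the genotype labels. Of the pituitary endocrine markers, 9 were tested and all 9 were above background in the controls. The array of control 10 stood apart on the first principal component, which held 44.8% of the variance, at -2.42 against 18.2 to 26.8 for the other 9 controls and -37.5 to -24.7 for the mutants. Control 10 also had high signal for both Xist, at 10.40, and the Y-linked Eif2s3y, at 11.05, while on each of the other 15 arrays the lower of those 2 genes was between 4.43 and 5.47. Whether this sample held RNA of more than 1 embryo was not tested. The counts of called members, in all and by phase, are therefore also given without control 10. On the other 15 arrays, Eif2s3y was higher than Xist on mutants 1, 3, 4 and 6 and on controls 1, 2, 4 and 9. Xist was the higher on the rest of those arrays. The fit had no term for sex, and its part in the changes was not tested. Levels below are log2 intensities after background correction and quantile normalisation, changes are mutant minus control, and a gene is called where the adjusted p of limma's moderated test, a linear model fitted to every probe, is under 0.05.

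Most of the tested mitosis genes fell in the mutants, and the G1 genes that passed went both ways. Of the 33 tested members, 11 fell and 3 rose. Among all tested genes 14.0% fell, 15.9% rose and 29.9% passed in either direction. Of the 11 tested G2 and mitosis members, 8 fell and 0 rose, with 10 lower and 0 higher at an unadjusted p under 0.05. Of the 14 tested S phase members, 2 fell and 0 rose, with 4 lower and 1 higher at an unadjusted p under 0.05. Of the 8 tested G1 members, 3 rose and 1 fell. The median change was -0.29 for G2 and mitosis members, -0.14 for S phase members and 0.082 for G1 members, beside 0.033 over all tested genes. Without control 10, 12 members fell and 3 rose, where 14.3% of all genes fell, 16.1% rose and 30.4% passed in either direction. By phase, 9 G2 and mitosis members and 2 S phase members then fell and 0 rose, while 3 G1 members rose and 1 fell. Leaving out mutant 1 left 7 members lower, and leaving out mutant 2 left 5 of the G2 and mitosis members lower. These are bulk samples, in which fewer dividing cells and less of each transcript per dividing cell cannot be told apart.

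**Figure D1:**
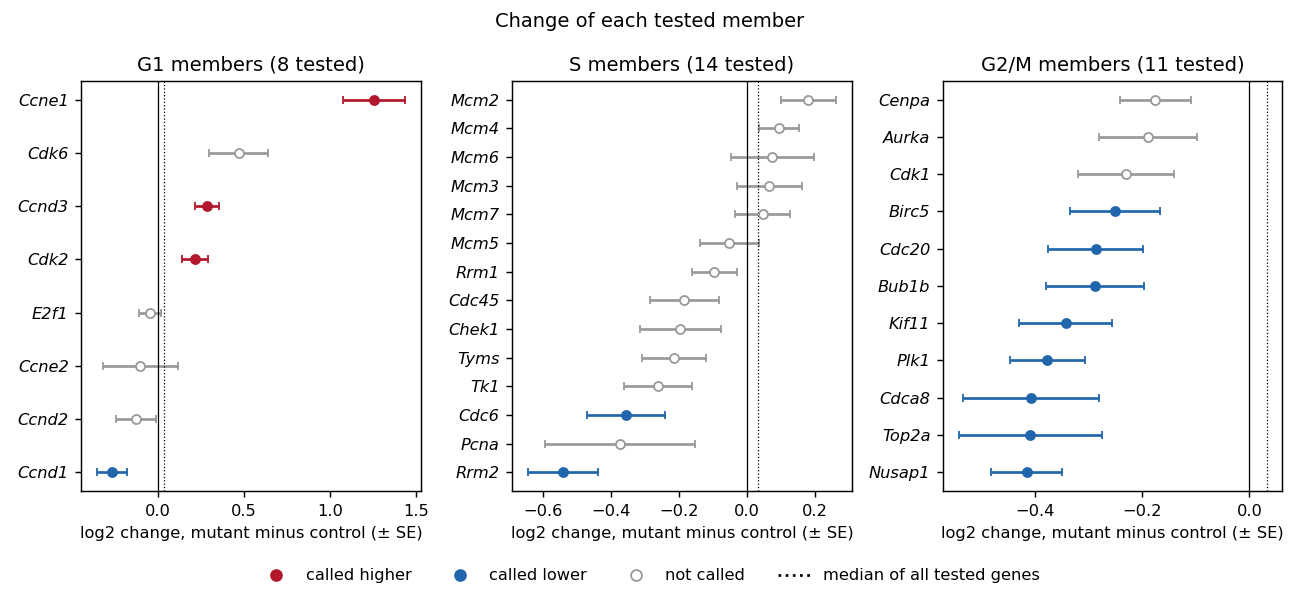
Change of each tested member on the log2 scale, mutant minus control, with bars of 1 standard error, by phase of the cycle, with a dotted line at the median of all tested genes. All 11 G2 and mitosis members lie below 0, and Ccne1, at 1.25, lies farthest from 0 of all 33.

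Ccne1, cyclin E1, which activates Cdk2 at the G1/S transition, rose the most of the members. Its log2 level was 7.93 at the lowest, 8.19 at the median and 8.59 at the highest over the 6 mutants, against 6.38, 7.02 and 7.82 over the 10 controls. All 6 mutants lay above every control, and the control nearest to them was control 10, at 7.82, while the other 9 controls reached at most 7.34. The change was 1.25 (SE 0.18, limma adjusted p = 4.17e-05), 2.39-fold. Among all tested genes, 3.94% were higher in mutants with no overlap between the groups. The raw intensity of the probe had a median of 380 in mutants and 192 in controls. Without control 10 the change was 1.34 (limma adjusted p = 3.73e-06). Its partner kinase Cdk2 rose by 0.21 (SE 0.076, limma adjusted p = 0.0458), with levels of 11.60, 11.78 and 11.84 in mutants, lowest, median and highest, against 11.34, 11.53 and 11.80 in controls. The highest Cdk2 control was again control 10. Of 4 Cdk2 probes all 4 pointed the same way, with changes from 0.21 to 0.30, but only the brightest was called. The Cdk2 call was lost in 18 of 31 alternative settings, among them the slide as a block (0.20, limma adjusted p = 0.0629). Cyclin E2, Ccne2, had a change of -0.10 (SE 0.22, limma adjusted p = 0.772) and was near the detection limit, detected on 2 arrays of the 6 mutants and 5 of the 10 controls.

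The D-type cyclins, the sensors of growth signals in early G1, moved apart. Ccnd1 had levels of 11.65, 11.88 and 12.21 in mutants, lowest, median and highest, against 11.94, 12.13 and 12.32 in controls. It was lower in 5 of 6 mutants than in every control, and 1 mutant lay above the control median. The change was -0.27 (SE 0.088, limma adjusted p = 0.0296), and all 3 Ccnd1 probes were called lower, by 0.27 to 0.38. The call was lost without mutant 1 (-0.23, limma adjusted p = 0.0770) and without mutant 5 (-0.23, limma adjusted p = 0.0737). Ccnd3 went the other way, with levels of 12.55, 12.67 and 12.91 in mutants against 12.19, 12.43 and 12.56 in controls. The change was 0.28 (SE 0.071, limma adjusted p = 0.00577), 5 of 6 mutants lay above every control, and the highest control was control 10. Of 3 Ccnd3 probes 2 were called higher, and the third, detected on 8 arrays, had a change of -0.00098. Ccnd2 had a change of -0.13 (SE 0.12, limma adjusted p = 0.462), with levels of 11.66, 11.83 and 12.17 in mutants against 11.38, 12.05 and 12.26 in controls.

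The within-array difference between related cyclins tests whether they changed unequally, by a 2-sided exact permutation test over arrays. Of 7 such pairs among the members, 4 had both genes tested, and p-values were adjusted over those 4. The members were chosen with results of these data known, so these p-values are descriptive. The difference of Ccnd1 minus Ccnd3 was lower in mutants by 0.55 (-0.83 ± 0.26 over the 6 mutants and -0.28 ± 0.22 over the 10 controls, SD, exact permutation adjusted p = 0.00200). Both genes had been called in opposite directions on the same arrays, so this contrast restates those calls and is no separate support. Ccnd2 minus Ccnd3 shifted by -0.41 (exact permutation adjusted p = 0.0107), and Ccnd1 minus Ccnd2 by -0.14 (exact permutation adjusted p = 0.414). Without control 10 these shifts were -0.59, -0.42 and -0.17, in the same order of pairs. The arrays lay on 2 slides, of which the permutation took no account. Ccnd2 changed by -0.38 on slide 1 and by 0.20 on slide 2, and Ccnd3 by 0.35 and 0.22. Ccnd2 and Ccnd3 thus moved apart on slide 1 only. Ccnd1 changed by -0.30 on slide 1 and by -0.32 on slide 2. The fourth pair, Ccne1 minus Ccne2, is not read as an unequal change, since Ccne2 was near background on most arrays. Its shift was 1.36, and 1.02 with no background correction. The level of one probe is not comparable with that of another, so only the shifts between groups are read.

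The other G1 members were not called. Cdk6, a kinase partner of the D-type cyclins, was dim: its levels were 5.91, 6.01 and 6.12 in mutants against 4.64, 5.64 and 6.14 in controls. It was detected on 6 of 6 mutant arrays and on 5 of 10 control arrays, and its change of 0.47 (SE 0.17, limma adjusted p = 0.0517) passed in 8 of 30 alternative settings. E2f1, the E2F activator, had a change of -0.047 (SE 0.065, limma adjusted p = 0.646). Its levels were 9.61, 9.76 and 9.89 in mutants, against 9.68, 9.76 and 10.00 in controls. Cdk4 had no probe under its symbol and was not analysed here.

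**Figure D2:**
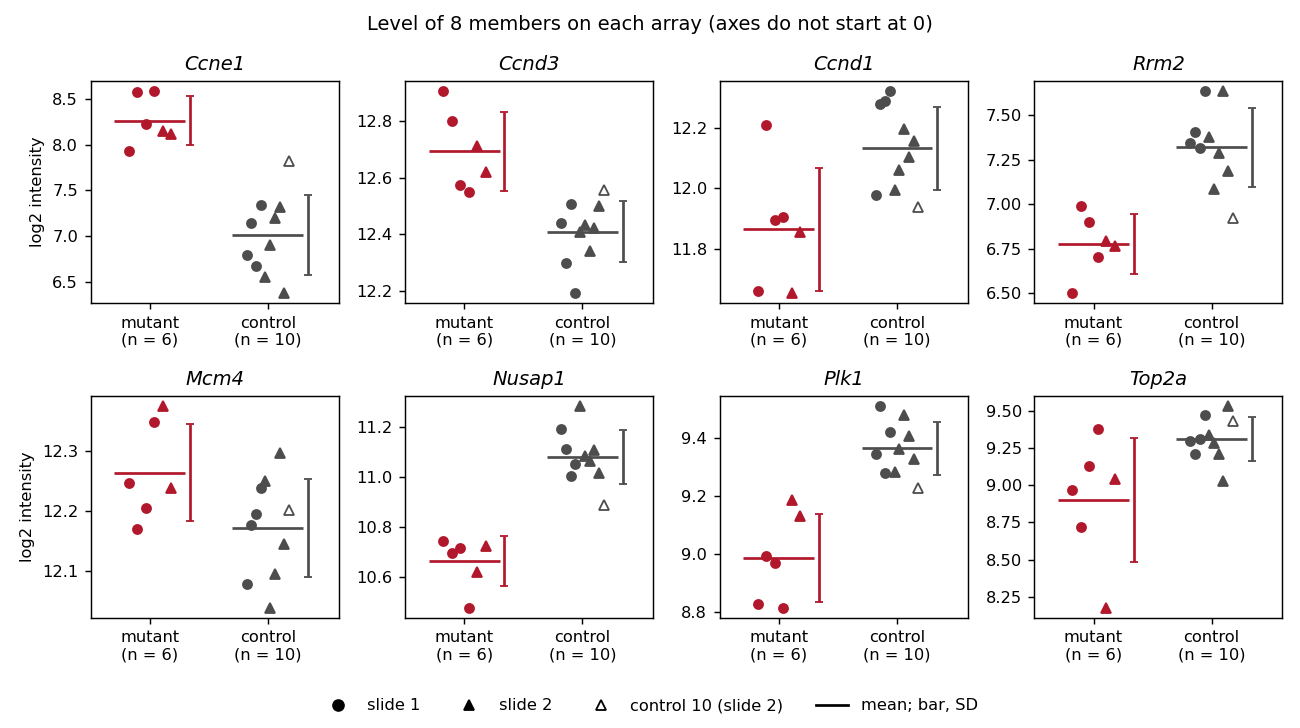
Log2 level on each array for 8 members, with mutants at the left of each panel and controls at the right, a line at the group mean and a bar of 1 SD (circles, slide 1; triangles, slide 2; open triangle, control 10). The groups do not overlap for Ccne1, Nusap1 and Plk1, and they overlap for Mcm4.

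In S phase, Cdc6 and Rrm2 fell, and no subunit of the helicase was called. These 2 of 14 tested members (14.3%) are close to the share of all tested genes that fell, 14.0%. The 6 subunits of the replicative helicase, Mcm2 to Mcm7, gave 0 calls, with 1 of 6 at an unadjusted p under 0.05, in limma's fit. Their changes lay between -0.053 for Mcm5 and 0.18 for Mcm2 (SE 0.082, limma adjusted p = 0.113), with a median of 0.070. Mcm4 had levels of 12.17, 12.24 and 12.38 in mutants, lowest, median and highest, against 12.04, 12.19 and 12.30 in controls. The signs of Mcm3, Mcm5 and Mcm7 turned under at least 1 alternative setting. Among the loading and firing factors, Cdc6, which brings the helicase to origins, fell by 0.36 (SE 0.11, limma adjusted p = 0.0269). The levels of Cdc6 were 7.62, 7.90 and 8.22 in mutants and 7.89, 8.28 and 8.75 in controls, and all 6 mutants lay below the control median. The Cdc6 call was lost without mutant 1 (limma adjusted p = 0.0740), mutant 3 (0.0509) or mutant 4 (0.0517). Cdc45, which joins the helicase when it fires, had a change of -0.18 (SE 0.10, limma adjusted p = 0.197).

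The 4 tested genes of nucleotide supply had changes between -0.54 and -0.097, with a median of -0.24, and 1 passed. Rrm2, the regulated small subunit of ribonucleotide reductase, had levels of 6.50, 6.78 and 6.99 in mutants, lowest, median and highest, against 6.92, 7.33 and 7.64 in controls. It was below every control in 5 of 6 mutants, and control 10 was the lowest control. The change was -0.54 (SE 0.10, limma adjusted p = 0.000667), 1.46-fold lower. The second Rrm2 probe fell by 0.74 (limma adjusted p = 0.000118), but it was detected on 4 mutant and 10 control arrays. Its mutant mean of 5.62 lay near the detection limit. It passed the filter on dim probes only through the controls, where it was higher, so it is no separate support. Rrm1, the large subunit, had a change of -0.097 (SE 0.067, limma adjusted p = 0.310). Tk1 and Tyms, which make thymidylate by salvage and by synthesis, had changes of -0.26 (SE 0.10, limma adjusted p = 0.0592) and -0.21 (SE 0.095, limma adjusted p = 0.104). The 4 kept Tyms probes differed in sign, from -0.21 to 0.055. Those detected on all 16 arrays had changes of -0.21 and -0.19, and dim ones detected on 7 and 10 arrays had changes of -0.12 and 0.055. Pcna, the sliding clamp of DNA polymerase, was scattered in both groups. Its levels were 7.48, 7.70 and 8.43 in mutants against 7.43, 8.29 and 9.26 in controls, and the change of -0.37 (SE 0.22) was not called (limma adjusted p = 0.230). With the slide as a block the change of Pcna was -0.17. Chek1, the kinase that holds the cycle when replication stalls, had a change of -0.20 (SE 0.12, limma adjusted p = 0.249). Gmnn, which blocks relicensing of origins, was detected on 0 of 16 arrays and has no value.

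Among the G2 and mitosis members, Nusap1 and Plk1 were lower in all 6 mutants than in all 10 controls. Among all tested genes, 5.26% were lower in mutants with no overlap. Nusap1, which bundles spindle microtubules around chromosomes, had levels of 10.48, 10.71 and 10.75 in mutants, lowest, median and highest, against 10.89, 11.07 and 11.28 in controls. The change was -0.42 (SE 0.066, limma adjusted p = 0.000107), 1.33-fold lower. Plk1, the kinase that matures centrosomes and promotes entry into mitosis, had levels of 8.81, 8.98 and 9.18 in mutants against 9.23, 9.35 and 9.51 in controls. Its change was -0.38 (SE 0.070, limma adjusted p = 0.000482), 1.30-fold lower. The lowest control of both genes was control 10, at 10.89 for Nusap1 and at 9.23 for Plk1.

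Spindle and chromosome genes followed. Kif11, the motor that pushes spindle poles apart, had levels of 6.99, 7.29 and 7.38 in mutants, lowest, median and highest, against 7.36, 7.58 and 7.88 in controls. Its change was -0.34 (SE 0.087, limma adjusted p = 0.00630), and 5 of 6 mutants lay below every control. Top2a, the topoisomerase that untangles sister chromatids, fell by 0.41 (SE 0.13, limma adjusted p = 0.0293). The mutants were spread over 8.18, 9.01 and 9.38, against 9.03, 9.31 and 9.53 in controls, and 1 mutant lay above the control median. The Top2a call was lost without mutant 2 (limma adjusted p = 0.0722) and without mutant 5 (-0.26, limma adjusted p = 0.0590). Cdca8 and Birc5 belong to the chromosomal passenger complex, which corrects attachments at centromeres. Cdca8 fell by 0.41 (SE 0.13, limma adjusted p = 0.0224) with overlapping groups, and lost the call without mutant 5 (limma adjusted p = 0.0613). Birc5 fell by 0.25 (SE 0.084, limma adjusted p = 0.0331), and all 3 of its probes were called lower, by 0.25 to 0.37. The call of the Birc5 probe used was lost in 11 of 31 alternative settings. Cenpa, the histone of centromeres, had levels of 11.94, 12.12 and 12.22 in mutants against 12.07, 12.29 and 12.44 in controls. Its change was -0.18 (SE 0.066, limma adjusted p = 0.0564), and without control 10 it passed (-0.19, limma adjusted p = 0.0470).

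Bub1b, the spindle checkpoint protein BubR1, fell by 0.29 (SE 0.091, limma adjusted p = 0.0244), with levels of 6.88, 7.07 and 7.35 in mutants, lowest, median and highest, against 7.09, 7.33 and 7.62 in controls. Cdc20, the activator of the anaphase-promoting complex that the checkpoint holds in check, fell by 0.29 (SE 0.089, limma adjusted p = 0.0217). The levels of Cdc20 were 9.48, 9.81 and 10.02 in mutants and 9.87, 10.04 and 10.26 in controls. Of 4 Cdc20 probes 3 were called lower, with changes over the 4 from -0.45 to -0.21. The Bub1b call was lost without mutant 1 (limma adjusted p = 0.0657) or mutant 2 (0.0554), and the Cdc20 call without mutant 3 (0.0549) or mutant 4 (0.0648). The kinases Cdk1 and Aurka, which drive entry into mitosis and spindle assembly, were not called. Cdk1 had a change of -0.23 (SE 0.090, limma adjusted p = 0.0637) and Aurka of -0.19 (SE 0.091, limma adjusted p = 0.136), with 5 of 6 mutants below the control median for both.

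The remaining G2 and mitosis members could not be tested. Ccnb2 and Bub1 were detected on 0 of 16 arrays. Ccna2, the S phase and mitosis cyclin A2, was detected on 1 mutant and 2 control arrays, and Ube2c, the ubiquitin-conjugating enzyme of the anaphase-promoting complex, on 1 mutant and 4 control arrays. Mki67, Ccnb1 and Aurkb had no probe under their symbols and were not analysed here.

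The promoters printed above can be read against these calls. Of the 8 G2 and mitosis members that fell, 6 held both TTTGAA and CCAAT, Cdc20, Kif11 and Top2a among them, against 6.95% of all promoter windows. Nusap1 and Birc5 held neither. Both also lay in the promoters of the 3 members tested and not called, Aurka, Cdk1 and Cenpa, and in 3 of 5 promoters of members that were not tested.

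A summary per array shows how far the phases separated. For each member the mean of the 10 controls was subtracted, and the median over the members of a phase was taken on each array. For G2 and mitosis members this median was -0.43, -0.33 and -0.21 in mutants, lowest, median and highest, against -0.14, -0.0061 and 0.14 in controls. Every mutant was below every control, and control 10 was the lowest control. For G1 members it was 0.13, 0.15 and 0.32 in mutants against -0.091, 0.023 and 0.16 in controls, and the groups overlapped only at control 10. Of the 8 tested G1 members, 4 had changes below 0 and 4 above, so this median does not describe a shared direction. For S phase members it was -0.24, -0.064 and -0.022 in mutants against -0.12, 0.019 and 0.12 in controls, with overlap. No p is given for these medians, since the members were chosen with results of these data known. After each group's mean was removed, the 55 pairs of G2 and mitosis members had a median Pearson r of 0.03 over the 16 arrays, from -0.63 to 0.78 with 29 of 55 above 0, as a description of arrays that share slides.

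**Figure D3:**
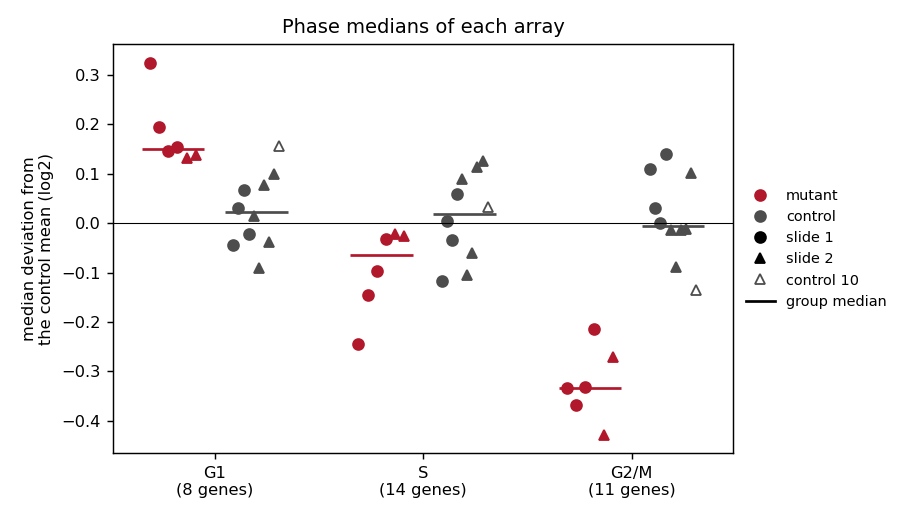
Median deviation from the control mean on each array, in log2 units, for the G1, S phase and G2 and mitosis members, with mutants at the left and controls at the right of each phase and a line at the group median (circles, slide 1; triangles, slide 2; open triangle, control 10). For G2 and mitosis members the highest mutant, at -0.21, lies below the lowest control, at -0.14.

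The arrays lay on 2 slides, with 4 mutants and 4 controls on slide 1 and 2 mutants and 6 controls on slide 2. With slide as a block, 12 members fell and 2 rose, where 14.5% of all genes fell, 15.8% rose and 30.3% passed in either direction. Within slide 1, 6 members fell and 2 rose, where 9.75% of all genes fell, 8.40% rose and 18.1% passed in either direction. Within slide 2, 0 members passed in limma's fit, with 7 lower and 2 higher at an unadjusted p under 0.05, where 7.72% of all genes passed, 4.95% lower and 2.77% higher. All 11 G2 and mitosis members had changes below 0 on both slides, with a median of -0.32 on slide 1 and -0.20 on slide 2. The change of Ccne1 was 1.34 (SE 0.19) on slide 1 and 1.11 (SE 0.32) on slide 2, and that of Nusap1 was -0.43 (SE 0.10) and -0.40 (SE 0.12). Plk1 was at -0.49 (SE 0.098) on slide 1 and -0.19 (SE 0.10) on slide 2, and Cdc20 at -0.50 (SE 0.12) and -0.067 (SE 0.096). The test of a genotype by slide interaction passed for 0 of the 33 members (lowest limma adjusted p = 0.999), with 3 at an unadjusted p under 0.05, which were Ccnd2, Cdc20 and Plk1. Ccnd2 had changes of -0.38 on slide 1, where it was called lower (limma adjusted p = 0.0291), and 0.20 on slide 2.

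**Figure D4:**
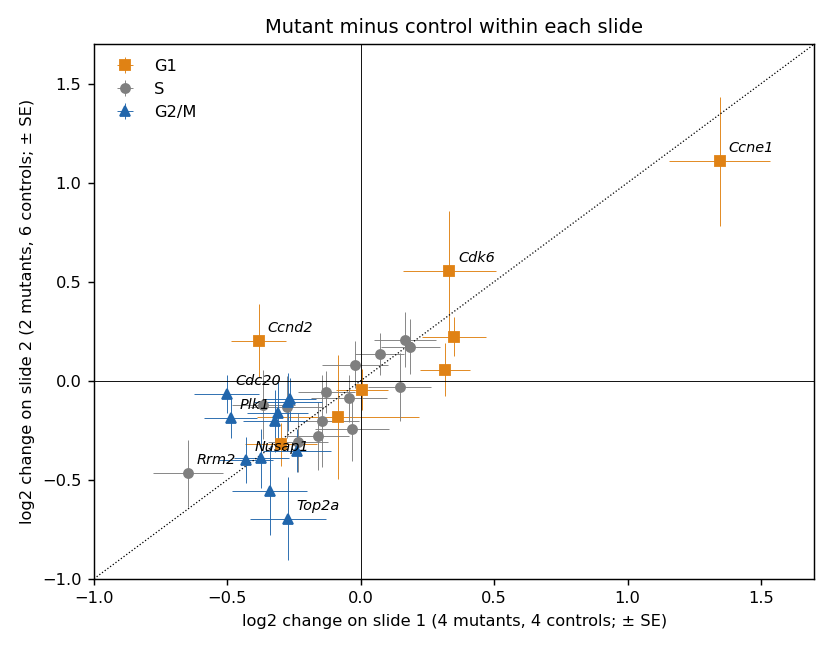
Change of each tested member within slide 1 on the x axis and within slide 2 on the y axis, both in log2 units, mutant minus control, with bars of 1 standard error, a colour and shape for each phase and a dotted line of equal change. All 11 G2 and mitosis members lie below 0 on both axes, and Ccne1 lies at 1.34 and 1.11.

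Control 10 was the control nearest to the mutants for 9 of the 14 called members (64.3%), and for 1255 of the 2891 called genes of the series (43.4%). For 9 members, therefore, the lowest or highest control values above are those of this array. Leaving it out ended 0 calls among the 14 members and added Cenpa.

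Other cell cycle genes outside the members were counted in the same fit, in which 14.0% of all tested genes fell and 15.9% rose. Of 29 further mitosis genes tested, 17 fell and 1 rose, with a median change of -0.31. Among the 17, Ttk was detected on 1 mutant and 7 control arrays and Dlgap5 on 2 and 7. Both passed the filter on dim probes only through the controls, where they were higher. Pbk, a mitotic kinase, fell by 0.38 (SE 0.063, limma adjusted p = 0.000148), Prc1, which bundles the central spindle, fell by 0.35 (SE 0.066, limma adjusted p = 0.000590), and Anln, a scaffold of the cleavage furrow, fell by 0.32 (SE 0.068, limma adjusted p = 0.00150). The gene that rose was Cdc25b, the phosphatase that activates Cdk1 at the start of mitosis, at 7.91 ± 0.041 (SD, n = 6) in the mutant arrays and 7.18 ± 0.17 (SD, n = 10) in the control arrays, a change of 0.73 (SE 0.077, limma adjusted p = 1.11e-06). Of 20 further replication genes, 1 fell and 0 rose, with 2 lower and 0 higher at an unadjusted p under 0.05 and a median of -0.071. That gene was Mcm10, a factor of helicase activation, with a change of -0.26 (SE 0.089, limma adjusted p = 0.0342). Next came Fen1, the flap endonuclease, at -0.15 (limma adjusted p = 0.0698), Rfc4, a subunit of the clamp loader, at -0.15 (limma adjusted p = 0.164), and Dut, a dUTPase, at -0.15 (limma adjusted p = 0.192). Of 9 further G1 and transcription regulators, 1 rose and 0 fell, with 2 higher and 0 lower at an unadjusted p under 0.05. Cdc25a, the phosphatase that activates Cdk2, rose by 0.32 (SE 0.094, limma adjusted p = 0.0165), while E2f3 (0.23), Skp2 (0.15) and Fbxw7 (0.098) were not called.

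Among 7 tested Cdk inhibitors and pocket proteins, 2 fell (28.6%) and 1 rose (14.3%), where 14.0% of all tested genes fell and 15.9% rose. With so few genes these counts are not read as a result about the list. Rb1, the retinoblastoma protein, was at 10.57 ± 0.18 (SD, n = 6) in the mutant arrays and 11.06 ± 0.14 (SD, n = 10) in the control arrays, a change of -0.49 (SE 0.084, limma adjusted p = 0.000268). Rbl1, its relative p107, was at 9.05 ± 0.12 (SD, n = 6) in the mutant arrays and 9.53 ± 0.087 (SD, n = 10) in the control arrays, a change of -0.48 (SE 0.064, limma adjusted p = 1.65e-05). Cdkn1c, the inhibitor p57, which marks cells leaving the cycle in the pituitary, was at 14.97 ± 0.063 (SD, n = 6) in the mutant arrays and 14.62 ± 0.14 (SD, n = 10) in the control arrays, a change of 0.35 (SE 0.071, limma adjusted p = 0.00116).

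**Figure D5:**
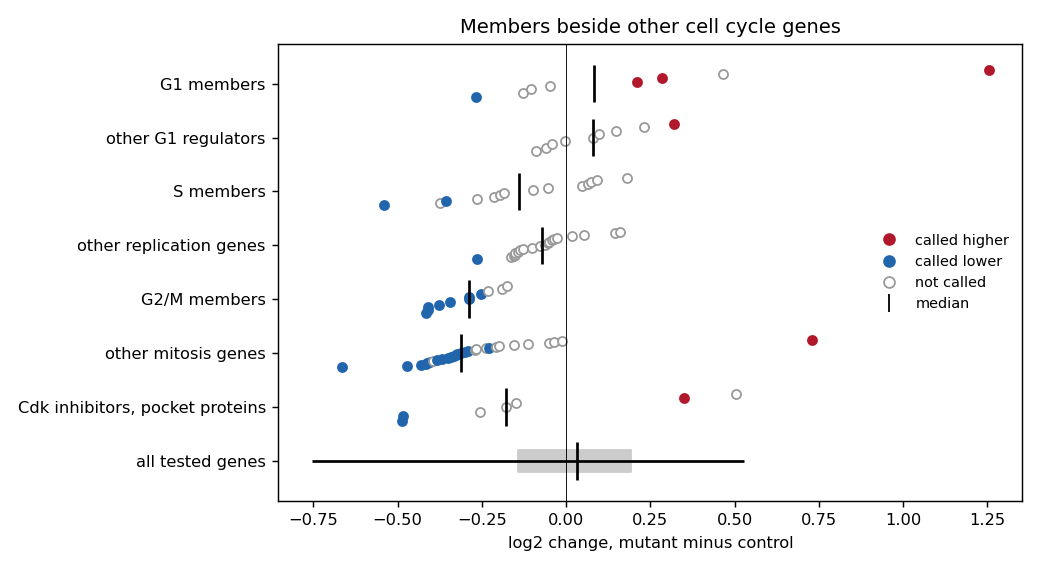
Changes of the tested genes of each cell cycle list, in log2 units, mutant minus control, with 1 point per gene, coloured by its call, and a bar at the list's median; for all tested genes the line spans the 5th to 95th percentile and the box the 25th to 75th. The medians are -0.29 for the G2 and mitosis members and -0.31 for the further mitosis genes, beside 0.033 for all tested genes.

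Markers of several cell types moved with genotype in the same samples, where 14.0% of all tested genes fell and 15.9% rose. All 9 tested endocrine markers, of 12 listed, fell. Their summed level was 8714 to 15370 in mutants against 79490 to 115900 in controls, in linear units of normalised intensity. Lhb was above background on 0 of 6 mutant arrays and Prl on 2. Both passed the filter on dim probes only through the controls, where they were high. Of 9 tested skeletal muscle markers 8 rose, with a summed level of 14640 to 21990 in mutants against 1106 to 10740 in controls, where control 10 had the 10740 and the other 9 controls at most 1386. The muscle list held 12 markers. Actc1, Myh8, Myog and Myod1 were above background on all 6 mutant arrays, and on 2, 3, 1 and 0 of the 10 control arrays. They passed the filter only through the mutants, where they were high. Of 6 tested macrophage markers 5 rose and 0 fell, with sums of 1695 to 1930 in mutants and 1181 to 1580 in controls. Of 7 tested progenitor markers 3 rose and 0 fell, with sums of 3539 to 4281 in mutants and 2764 to 3464 in controls. Of 7 tested neuronal markers 3 fell and 0 rose, with sums of 2543 to 3346 in mutants and 3208 to 4787 in controls. Of 7 tested mesenchymal markers 1 rose, with sums of 18280 to 28280 in mutants and 16620 to 26550 in controls. Of 6 endothelial and 4 erythroid markers 0 passed in limma's fit, with 1 endothelial marker higher and 0 erythroid markers at an unadjusted p under 0.05. The endothelial sums were 8687 to 10770 in mutants and 7618 to 9764 in controls, and the erythroid sums 47480 to 51100 in mutants and 45140 to 48810 in controls. Most of the erythroid sum was Hba-a1, whose probe had the highest value of the scale on all 6 mutant and on 8 of the 10 control arrays and can show no rise, and without it the sums were 2282 to 5902 in mutants and 2091 to 3610 in controls. Each sum is over the same probes in both groups, so sums are set against each other between groups only. The part of these cell types in the changes of the cell cycle genes was not tested.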

How the data were processed

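Total RNA of 16 pituitary samples was measured, 1 array each, and groups were taken from the sample titles. Per the file headers, the deposited raw table gives 25697 probes by array, with the average bead intensity of each and its detection p-value. The submitters' processing notes name GenomeStudio, in a version not given in the sources used here. A second deposited table holds intensity values on a linear scale that reach below 0, with its normalisation not stated, and was used as an alternative, on a log2 scale with values under 16 set to 16.

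Intensities were background-corrected from the detection p-values (nec, offset 16), quantile-normalised and log2-transformed with limma 3.58.1 in R 4.3.3. A probe was kept where 6 or more of the 16 arrays gave a detection p-value below 0.01 (13813 probes, 9682 genes and 799 probes unnamed here). Genotype was the only term of the limma fit (lmFit, eBayes); p-values were adjusted by Benjamini-Hochberg over every kept probe, with a threshold of 0.05. Each gene stands for its kept probe of highest mean, a choice that the text checks against the other probes. The number of arrays limits the precision.

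Probes were named from the platform annotation, in which 23978 carried 1 symbol, 0 several and 1719 none. Promoters came from RefSeq (GRCm38.p6). All 42 members are accounted for. Of each other cell cycle list the 4 tested genes of smallest adjusted p are named, and of the inhibitors every called gene. The members and lists were chosen with earlier results of these data known, so lists are described by counts and medians and no set test was run. Alternatives covered background correction, offset, scaling, the second table, the filter, the variance model, array weights, slide, replicate number, single arrays left out, probe choice and threshold. The fit was tested on simulated data.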

Additional observations from a re-analysis of the deposited data

Results flagged for a closer look

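In 74 groups of values, 1 sample stood apart from the rest of its group in 2 cases, by Dixon's test at the 95% level, which chance alone gives in about 1 of 20 groups. The Ccnd2 level of control 7 was 11.38, where the other 9 controls lay between 11.88 and 12.26. The median deviation of the G1 members in mutant 1 was 0.325, where the other 5 mutants lay between 0.132 and 0.194.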

How the results depend on the processing

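Of the 14 called members, 0 changed direction in any of the 31 alternative settings, and 6 kept their call without each of the 16 arrays in turn: Ccne1, Ccnd3, Rrm2, Plk1, Kif11 and Nusap1. At an adjusted p under 0.01, 4 members, 3 G2 and mitosis members, 1 S phase member and 0 G1 members were lower, with 1850 genes called in all. On slide 1 alone, 6 members, 4 G2 and mitosis members and 1 S phase member were lower, 1757 genes were called, and the G1 median was 0.16. On slide 2 alone, with 8 arrays, 0 members of any phase were called higher or lower, 747 genes were called, and the median was -0.12 for all members and -0.204 for G2 and mitosis members. Median scaling left 1 S phase member lower. Uncalled members changed sign as follows: on slide 2, Ccnd2 (0.202) and Mcm3 (-0.0322); on slide 1, E2f1 (0.00398) and Mcm7 (-0.0233); under cyclic loess, Mcm7 (-0.0141). Leaving out 1 array gave 2 to 4 members higher and 7 to 13 lower, with 2 to 4 G1 members higher and 0 to 1 lower, 1 to 3 S phase members lower, 5 to 9 G2 and mitosis members lower and 2461 to 2941 genes called. Under the same omissions the median lay between -0.21 and -0.178 for members, 0.0595 and 0.126 for G1, -0.159 and -0.111 for S phase, and -0.335 and -0.272 for G2 and mitosis. The change lay between -0.206 and 0.0603 for Ccne2, between -0.1 and 0.0155 for Mcm5 and between -0.0126 and 0.0868 for Mcm7. The deviations of same-numbered samples correlated at 0.297, 0.392, 0.0395, 0.478, 0.159 and 0.249 for numbers 1 to 6. With the slide removed the values were 0.245, 0.289, -0.185, 0.332, -0.0542 and 0.101. Before the slide was removed, 5 of 6 mutants, all but number 3, correlated best with their own number among controls 1 to 6. Of those controls, only 5 and 6 lay on the slide of mutants 5 and 6. These values are a hint of shared handling in the data, but the labels name none. Number 3 stayed under 0.1, as did number 5 with the slide removed, so the numbers were not taken as pairs. With the replicate number as a block, only numbers 1 to 6 of each group were fitted, so controls 7 to 10 were left out. In that fit 4 S phase members were lower, where 1409 of the 9682 tested genes fell and 1562 rose. Cdc45, Tk1 and Cdk6 were called there as well, and Bub1b and Cdk2 were not. The block and the loss of those controls cannot be told apart in these calls. The cause of these shifts was not tested. Fits within a slide and the fit with the replicate block used fewer arrays, and the stricter threshold can only remove calls. Probes near background, Ccne2 and Cdk6 among the members, limit what dim genes can show.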
